A study of Mus musculus with 60 samples.

Results

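RNA sequencing measured how mouse cancer-associated fibroblasts (CAFs) changed when 344SQ cancer cells grew on the other side of a porous membrane. The comparison described here set the 30 libraries of tCAFs cultured in a Boyden chamber with the 344SQ cell line or without cancer cells against each other, out of 60 libraries in the series. The 3 technical libraries of each biological replicate were summed, which gave 5 sums of CAFs with 344SQ and 5 sums of CAFs alone. 344SQ is a metastatic mouse lung adenocarcinoma line, and 393P is a line of the same kind that rarely spreads. No genotype, age or sex is stated for any group in the labels used here, and the titles of the aggregates of CAFs alone name GFP. As references, 5 sums of tCAFs grown across the membrane from the 393P cell line were used, and 3 libraries each of tCAFs alone and of tCAFs mixed with 344SQ as multicellular aggregates. Before lysis the CAFs of every group had been sorted by fluorescence. The gate, the mouse strain, the number of fibroblast isolates, the culture time and the meaning of the prefix in tCAF are not stated there either. The p-values therefore set differences between groups only against the spread of these samples. That spread may be technical, and whether the results extend to other isolates cannot be told.

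CAFs are the activated fibroblasts of tumours. They make the collagen-rich matrix and contract it, and they also secrete chemokines, cytokines and growth factors that act on cancer and immune cells. A Boyden chamber keeps the cell types apart, so that cancer cells reach the fibroblasts through soluble or vesicle-borne signals and through the shared medium. Interleukin-1 and tumour necrosis factor are known to act on fibroblasts through the transcription factor NF-kB, which drives chemokine and acute phase genes, while transforming growth factor beta and mechanical tension favour the contractile, matrix-producing state.

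The sums with 344SQ held 4182944 to 5857925 counts and those of CAFs alone 6734110 to 8542262, without overlap (exact permutation test, 2-sided, p = 0.00794, the smallest that 5 against 5 allow, adjusted p = 0.0437 over 11 library measures). Mitochondrial genes took 12.3% to 13.8% of the counts with 344SQ and 10.8% to 13.5% without (p = 0.302, exact permutation test). The labelled cell type fitted its markers: of 15 fibroblast genes listed, 14 passed the count filter, and their summed level was 26418 to 30964 CPM (counts scaled to library size) with 344SQ and 30080.0 to 32004 CPM in CAFs alone. The sum was thus somewhat lower with 344SQ (p = 0.0238, exact permutation test, adjusted p = 0.0524), and of the 14 genes 6 fell and 2 rose. Of 32 carcinoma and lung epithelial markers, 11 passed the filter and 5 were at 0 in all 10 sums. Their summed level was 88.8 to 118 CPM with 344SQ and 114 to 134 CPM without (p = 0.0159, exact permutation test, adjusted p = 0.0437). Cdh3 alone was at 28.2 to 50.2 CPM with 344SQ and 57.6 to 73.3 CPM in CAFs alone, so the lower sum mostly repeats that gene. Of the 11 tested markers 2 fell and 0 rose, with a median log2 change of 0.19. The defining carcinoma gene Epcam was at 0 in 8 of the 10 sums, but the E-cadherin gene Cdh1 stood at 7.65, 4.51, 5.21, 8.31 and 17.1 CPM with 344SQ and 1.79, 1.92, 3.31, 2.75 and 4.37 CPM in CAFs alone (log2 change 1.54 ± 0.74, adjusted p = 0.201, no overlap between the groups). With 393P, Cdh1 scattered widely, at 16.5, 4.0, 9.17, 0.609 and 0.724 CPM, and the source of this transcript was not tested. Of 21 leukocyte markers 3 were tested, 8 were at 0 in all 10 sums and 1 fell, and of 11 mural markers 5 were tested and 1 fell. The leukocyte marker was not called without CAFs-alone replicate 3 or 344SQ replicate 3, nor the mural one without 344SQ replicate 4. Endothelial markers, of which 1 of 13 was tested and fell (Kdr), summed to 8.60 to 12 CPM and 14.9 to 19.3 CPM (p = 0.00794, adjusted p = 0.0437). Kdr alone was at 5.55 to 9.84 CPM with 344SQ and 11.8 to 16.8 CPM in CAFs alone, so this sum mostly repeats that gene. In such bulk libraries fewer cells of a type and less RNA per cell cannot be told apart, and the part of depth or of other cell types in the results below was not tested. Technical libraries that shared a replicate did not resemble each other more closely than those that did not.

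**Figure D1:**
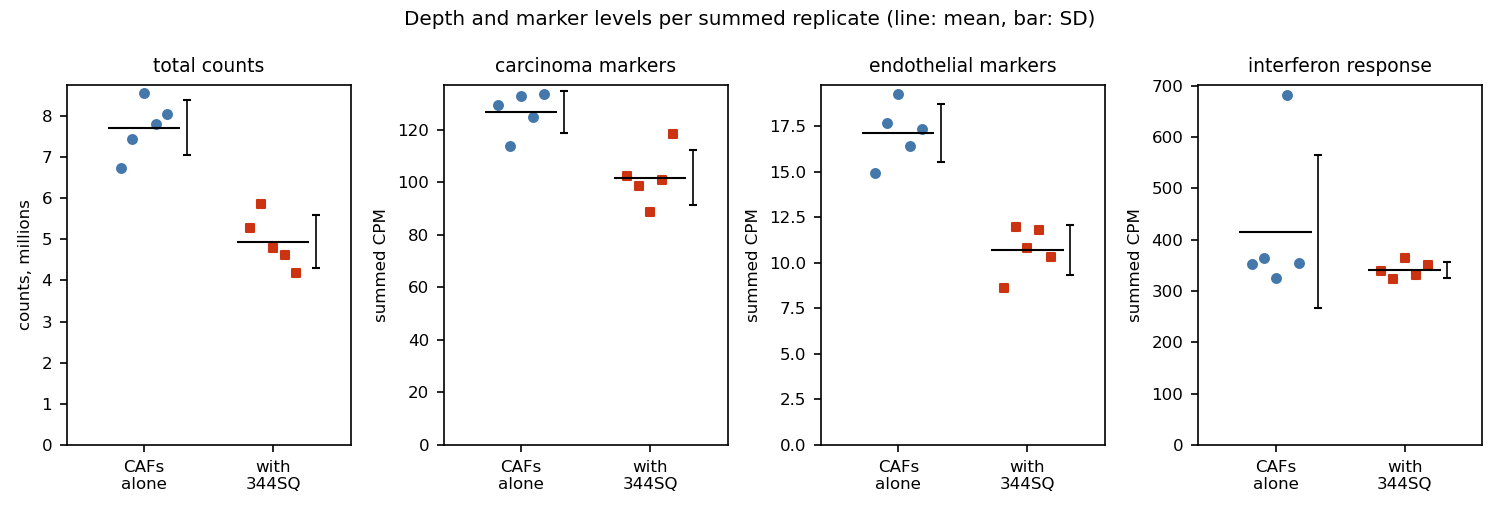
Total counts and summed CPM of carcinoma markers, endothelial markers and interferon response genes, with 1 point per summed replicate (5 per group), a line at the mean and a bar of 1 SD. Depth and the summed endothelial markers, mostly Kdr, are lower with 344SQ without overlap, and 1 of the CAFs-alone sums, at 681 CPM, stands apart in the interferon panel.

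Levels are given as CPM with edgeR's TMM scaling between libraries, with means ± SD over 5 sums, and log2 changes of 344SQ against CAFs alone are given ± SE. A gene was called higher or lower, and is said to have risen or fallen, where edgeR's quasi-likelihood test gave an adjusted p under 0.05 (Benjamini-Hochberg over all genes tested). Of 14040 genes tested, 2070 (14.7%) were called, 1033 higher (7.36%) and 1037 lower (7.39%). The counts of list members given below stand against these shares, and no list was tested as a set. Lists and members were chosen with earlier results of these data known, so an excess over these shares may be partly built in. The large changes were mostly rises. At least 2-fold, 155 genes rose (1.1%) and 57 fell (0.406%), at least 4-fold 30 rose and 5 fell, and at least 8-fold 9 rose and none fell. Among the genes tested, 9 were over the filter cutoff in no sum of CAFs alone or with 393P. All 9 were called higher, Lcn2, Cxcl2 and Cxcl5 among them. They entered through the 344SQ sums alone, so their rises do not support this excess. Genes that entered only through CAFs alone were not counted. Most calls were small, with a median size of 0.43 on the log2 scale. In 1394 genes (9.93%) the 5 values of the groups did not overlap. At an unadjusted p under 0.05 there were 3925 genes. The strand setting of the counting is not stated, so values of genes that overlap another gene on the opposite strand, such as Cp, Ch25h, Plxna4, Sfrp2, Limch1, Ccl2, Mt2, Timp3, Pdgfra, Bnip3 and Hif1a, may hold reads of that gene.

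Among the largest rises were genes of the acute phase and of innate defence. Lcn2, which encodes the iron-siderophore binding protein lipocalin-2 (ENSMUSG00000026822.14, chr2:32384633-32388252 of GRCm38, minus strand), was at 0, 0, 0, 0.125 and 0.250 CPM in the 5 sums of CAFs alone. With 344SQ it was at 26.6, 26.2, 22.9, 22.9 and 22.8 CPM. Lcn2 was thus close to undetected in CAFs alone, with 3 counts over the 5 sums against 602, a ratio of 313 with a 95% counting interval of 107 to 1520. Saa3, the serum amyloid A gene that mouse stromal cells use (ENSMUSG00000040026.8, chr7:46711998-46715700, minus strand), went from 51.9, 59.6, 44.8, 44.1 and 73.1 CPM to 2239.8, 1818, 2026, 2418 and 2411 CPM, a log2 change of 5.32 ± 0.15 (adjusted p = 1.26e-13). Its lowest value with 344SQ was far above the highest without.

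The metalloreductase gene Steap4 (ENSMUSG00000012428.9, chr5:7960457-7982213) rose from 3.33 ± 0.875 to 31.6 ± 5.81 CPM (log2 change 3.23 ± 0.16), and the ceruloplasmin gene Cp, a copper-carrying ferroxidase, from 4.84 ± 1.36 to 36.5 ± 7.38 CPM (2.89 ± 0.16). Lbp, whose protein presents bacterial lipopolysaccharide to its receptor, rose from 11.5 ± 0.506 to 25 ± 3.44 CPM (1.12 ± 0.12, adjusted p = 5.16e-08). Il1rn, which encodes the natural antagonist of the interleukin-1 receptor, moved the other way. It was at 29.5, 24.3, 26.3, 24.3 and 29.2 CPM in CAFs alone and at 8.60, 11.6, 17.3, 17.3 and 16.2 CPM with 344SQ, without overlap (log2 change -0.93 ± 0.14, adjusted p = 1.52e-05). Of the 22 genes on this list, 10 were tested, 7 rose and 1 fell. Lcn2 passed the count filter through the 344SQ sums alone, so this count does not support a rise of the list.

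Cxcl1, Cxcl2 and Cxcl5, chemokines that draw neutrophils through the receptor CXCR2, rose. Cxcl1 (ENSMUSG00000029380.11, chr5:90891241-90893115) was at 10.4, 9.32, 13.6, 13.1 and 10.9 CPM in CAFs alone and at 133, 123, 142, 194 and 175 CPM with 344SQ (log2 change 3.73 ± 0.13, adjusted p = 4.61e-16). Cxcl5 went from 0.745, 0.548, 0.354, 0.751 and 0.250 CPM to 28.1, 22.7, 27.1, 42 and 39.7 CPM (5.88 ± 0.25). Cxcl2 was at 0.149, 0, 0, 0.125 and 0.125 CPM in CAFs alone and 6.12, 3.47, 6.04, 7.43 and 7.04 CPM with 344SQ, which is 3 counts against 145, a ratio of 75.5 with a 95% counting interval of 25.3 to 370.0. Such intervals are exact binomial and cover counting error only. These 3 genes lie within 1 cluster on chromosome 5. In each the 5 sums with 344SQ were above all sums of CAFs alone, which the naming rule for the largest rises requires. The other 4 neutrophil chemokines listed did not pass the filter, and Cxcl2 and Cxcl5 passed it through the 344SQ sums alone, so no support for a rise of the list comes from its count.

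The promoters of Cxcl2, Cxcl1 and Steap4 are shown because, among the 13 of the 15 largest rises with a promoter window, they were the ones with a match to the NF-kB motif. Each window runs from 250 bases before to 50 after the RefSeq transcript start (GRCm38.p6, plus strand, 5′ to 3′), at chr5:90903649-90903948, chr5:90890995-90891294 and chr5:7960222-7960521. Capitals mark the matches. In Cxcl2 and Cxcl1 a match on each strand overlaps the other, and both Steap4 matches are on the minus strand.
Cxcl2: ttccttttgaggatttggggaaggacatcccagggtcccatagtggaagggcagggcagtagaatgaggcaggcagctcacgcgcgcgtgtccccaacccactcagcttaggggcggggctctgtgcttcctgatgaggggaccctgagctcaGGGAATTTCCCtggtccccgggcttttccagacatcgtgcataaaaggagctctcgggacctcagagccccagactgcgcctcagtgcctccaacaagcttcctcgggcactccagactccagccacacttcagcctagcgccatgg
Cxcl1: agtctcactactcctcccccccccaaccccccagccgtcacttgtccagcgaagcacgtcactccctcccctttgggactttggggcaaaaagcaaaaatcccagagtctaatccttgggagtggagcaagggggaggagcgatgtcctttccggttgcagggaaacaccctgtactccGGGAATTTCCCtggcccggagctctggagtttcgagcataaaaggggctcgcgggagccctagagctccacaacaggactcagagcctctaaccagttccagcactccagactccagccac
Steap4: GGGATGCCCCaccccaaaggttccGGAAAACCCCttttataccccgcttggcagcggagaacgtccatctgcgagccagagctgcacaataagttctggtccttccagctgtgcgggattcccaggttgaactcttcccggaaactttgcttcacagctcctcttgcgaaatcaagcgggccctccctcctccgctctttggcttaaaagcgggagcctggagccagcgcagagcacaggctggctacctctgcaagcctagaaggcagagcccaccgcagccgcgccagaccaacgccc
The same 10 bases, GGGAATTTCC, stand 97 to 88 bases before the start of Cxcl2 and 71 to 62 bases before that of Cxcl1. A match was found in 1480 of 32851 RefSeq promoter windows (4.51%). Only 9156 of the genes tested (65.2%) could be paired with a window, below the 80% set as a minimum, so shares among genes called were not compared.

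**Figure D2:**
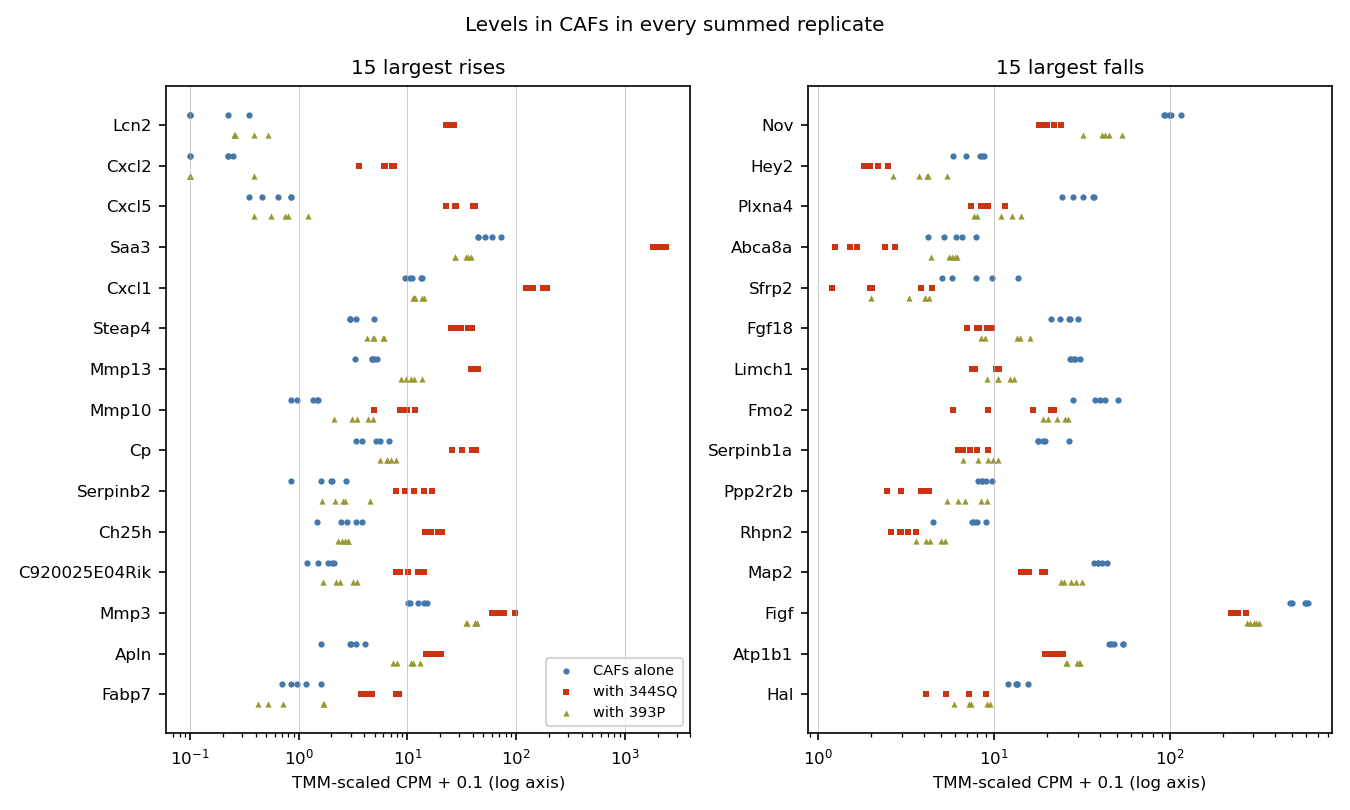
TMM-scaled CPM plus 0.1 on a log axis, with 1 point per summed replicate, for the 15 genes with the largest rises and the 15 with the largest falls that met the naming rule, in CAFs alone, with 344SQ and with 393P. The 344SQ points stand to the right of the CAFs-alone points for every rise shown and to the left for every fall shown, as that rule requires. Saa3 reaches 2418 CPM.

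Of the chemokines for monocytes and lymphocytes, Ccl2, Ccl7 and Cxcl16 rose. Ccl2, the main monocyte attractant, was at 35.2, 22.3, 20.3, 28.2 and 23.5 CPM in CAFs alone and 109, 158, 71.9, 82.8 and 135 CPM with 344SQ, with a wide spread between the 344SQ sums but no overlap (log2 change 2.11 ± 0.22, adjusted p = 1.31e-05). Its neighbour Ccl7 rose from 126 ± 10.2 to 386 ± 34.2 CPM (1.61 ± 0.07) and Cxcl16, a membrane-bound chemokine for T cells, from 13.4 ± 1.05 to 50.5 ± 4.05 CPM (1.91 ± 0.09). Cxcl12, the fibroblast chemokine that binds CXCR4, fell slightly, from 1880.3, 1871, 1820.0, 1851 and 1851 CPM to 1641, 1503, 1599, 1596 and 1591 CPM (-0.23 ± 0.05, adjusted p = 0.00286). These were the 3 genes that rose and the 1 that fell among 12 tested of 27, and the other 8 were not called. Without 344SQ replicate 2, 3 or 4 the number that rose was 5.

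Feedback inhibitors and targets of NF-kB were among the genes that rose. Tnfaip3, which encodes the deubiquitinase A20 that shuts the pathway off, went from 35.8, 37.5, 33.8, 42.9 and 29.9 CPM to 110.1, 91.8, 93.2, 100.1 and 89.9 CPM (log2 change 1.43 ± 0.08, adjusted p = 2.04e-13). Nfkbia, which encodes the inhibitor IκBα, went from 45, 48.6, 49.9, 47.8 and 43 CPM to 89.7, 97.2, 87.1, 100.1 and 107 CPM (1.03 ± 0.07). The groups did not overlap in either gene. Zc3h12a, an RNase that degrades inflammatory transcripts, rose by 1.65 ± 0.23, and the leukocyte adhesion gene Vcam1 from 344 ± 13.1 to 731 ± 29.8 CPM (1.09 ± 0.06). Of 24 tested genes of the list of NF-kB subunits, feedback and target genes (27 listed), 15 rose and none fell (median log2 change 0.44). The subunit gene Nfkb1 was among those that rose (0.49 ± 0.08), and Rela was not called (-0.16 ± 0.10).

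Receptors upstream of NF-kB moved in both directions. Of 19 interleukin-1 and tumour necrosis factor family genes tested, 5 rose and 5 fell. The receptor genes Tnfrsf1b (0.71 ± 0.08) and Il1rap (0.44 ± 0.07) rose, as did Irak3, an inhibitor of receptor signalling (0.45 ± 0.10). Tnfrsf1a, the other tumour necrosis factor receptor, fell (-0.27 ± 0.07, adjusted p = 0.0109), and the alarmin gene Il33 fell from 22.5 ± 3.17 to 13.2 ± 4.43 CPM (-0.78 ± 0.18). Both counts depend on single sums. The number that rose was 3 without CAFs-alone replicate 5 or 344SQ replicate 5, and the number that fell was 3 without CAFs-alone replicate 5 or 344SQ replicate 3.

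Il6, the cytokine gene used to mark inflammatory CAFs (ENSMUSG00000025746.11, chr5:30013114-30019981), was at 12.5, 17.3, 12.4, 15.8 and 13 CPM in CAFs alone and at 34.4, 36.1, 32.5, 31.7 and 34.7 CPM with 344SQ (log2 change 1.26 ± 0.10, adjusted p = 2.99e-10). All sums with 344SQ were above all without. Lif, a cytokine of the same family, rose from 47.8 ± 0.975 to 97.7 ± 11.7 CPM (1.03 ± 0.08), the kinase gene Jak2 from 121 ± 7.28 to 207 ± 9.70 CPM (0.77 ± 0.06), and Cebpd, a transcription factor gene induced by interleukin-6, by 1.03 ± 0.15. In this list 5 of 19 tested genes rose and 2 fell, but 1 fell when any of the sums was left out other than CAFs-alone replicate 3 or 344SQ replicate 2. In prostaglandin E2 synthesis, the synthase gene Ptges rose from 46.3 ± 3.76 to 91.9 ± 6.21 CPM (0.99 ± 0.07) and Ptgs2, which encodes cyclooxygenase-2, from 473 ± 48.3 to 610.3 ± 35.2 CPM (0.37 ± 0.07). Of 13 prostaglandin genes tested, 3 rose, 10 were not called and none fell.

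Stromelysins and collagenase 3 rose, while 2 of the tissue inhibitors of metalloproteinases fell. Mmp13, which encodes collagenase 3 (ENSMUSG00000050578.9, chr9:7272514-7283331), went from 4.62, 4.66, 3.19, 5.13 and 4.87 CPM to 39.8, 44.4, 38.3, 44.6 and 42.2 CPM (log2 change 3.22 ± 0.13, adjusted p = 2.40e-17). Mmp3, which encodes stromelysin-1, went from 12.4, 10.4, 15, 14.1 and 9.98 CPM to 75.1, 59.5, 67.3, 76.9 and 97.8 CPM (2.59 ± 0.13), and Mmp10, which encodes stromelysin-2, from 1.13 ± 0.304 to 8.67 ± 2.51 CPM (2.90 ± 0.27). The groups did not overlap in any of these 3 neighbours on chromosome 9, which the naming rule for the largest rises requires. Timp3, whose protein stays bound in the matrix, went from 3953, 3883, 3662, 3732 and 3907 CPM to 2226, 2399, 2009, 1979.9 and 1930.2 CPM (-0.86 ± 0.06), and Timp2 from 1448 ± 29.5 to 964 ± 15.1 CPM (-0.59 ± 0.05). Timp1 rose (0.48 ± 0.07), so the inhibitors did not move as a group, and over the list 4 of 14 rose and 4 fell.

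The promoters of Mmp13, Mmp10 and Mmp3 held the AP-1 motif, TGACTCA or TGAGTCA, which is the same site read on both strands. They were chosen for display after their values were seen, as the only ones with such a match among the same 13 windows. The windows (GRCm38.p6, plus strand, 5′ to 3′, from RefSeq) are chr9:7272264-7272563, chr9:7502092-7502391 and chr9:7445572-7445871, and capitals mark the motif.
Mmp13: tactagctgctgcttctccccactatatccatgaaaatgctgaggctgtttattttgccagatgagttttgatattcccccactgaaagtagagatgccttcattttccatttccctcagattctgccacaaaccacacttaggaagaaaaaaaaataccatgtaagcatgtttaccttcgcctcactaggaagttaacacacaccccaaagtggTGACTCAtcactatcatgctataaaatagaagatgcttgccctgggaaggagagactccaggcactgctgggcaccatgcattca
Mmp10: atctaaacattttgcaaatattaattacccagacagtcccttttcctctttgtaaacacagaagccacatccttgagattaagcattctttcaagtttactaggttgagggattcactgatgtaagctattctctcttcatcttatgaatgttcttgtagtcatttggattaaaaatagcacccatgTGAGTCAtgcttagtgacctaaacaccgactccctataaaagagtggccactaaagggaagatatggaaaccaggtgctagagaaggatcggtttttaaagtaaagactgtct
Mmp3: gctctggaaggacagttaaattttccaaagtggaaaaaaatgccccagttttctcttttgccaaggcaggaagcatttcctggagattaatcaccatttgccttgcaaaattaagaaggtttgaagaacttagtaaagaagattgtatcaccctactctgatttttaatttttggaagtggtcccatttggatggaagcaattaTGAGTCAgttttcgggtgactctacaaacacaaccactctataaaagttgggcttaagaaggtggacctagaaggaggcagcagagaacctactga
The motif stands 35 to 29, 63 to 57 and 46 to 40 bases before the start. It was found in 1709 of all 32851 windows (5.2%).

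Proteases of the ADAMTS family were split. Adamts9 rose from 12.1 ± 1.86 to 32.5 ± 4.66 CPM (1.41 ± 0.12), and Adamts5 and Adamts1, which cut the proteoglycans aggrecan and versican, fell from 1092 ± 99.9 to 669.7 ± 75.7 CPM (-0.71 ± 0.07) and from 325 ± 40.7 to 197 ± 21.4 CPM (-0.72 ± 0.08). Of 19 ADAM and ADAMTS genes tested 5 rose and 5 fell, and 3 fell without CAFs-alone replicate 1 or 344SQ replicate 4 or when the 393P sums were left out of the fit. Among serine protease inhibitors, Serpinb2, which encodes plasminogen activator inhibitor-2, rose from 1.74 ± 0.687 to 11.9 ± 3.65 CPM (2.78 ± 0.27). The intracellular inhibitors Serpinb9, which blocks granzyme B, and Serpinb9b fell (log2 changes -1.06 ± 0.06 and -0.84 ± 0.07), with 152, 157, 152, 148 and 163 CPM for Serpinb9 in CAFs alone and 79.7, 71.7, 77.1, 75.8 and 66.2 CPM with 344SQ. In the plasminogen and serpin list 1 of 13 tested genes rose and 6 fell.

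Of 32 genes of glycolysis and of the response to low oxygen, 22 rose, 9 were not called and 1 fell. Under low oxygen, or when the factor HIF-1 is stabilised otherwise, cells raise glucose uptake, glycolytic enzymes and lactate export. Bnip3, a mitophagy receptor gene and HIF-1 target, was at 6.86, 9.87, 7.80, 8.26 and 8.24 CPM in CAFs alone and at 35.8, 36.6, 33.6, 26.9 and 40.1 CPM with 344SQ (log2 change 2.07 ± 0.12, adjusted p = 2.15e-13). Adm, which encodes the vasodilator adrenomedullin, rose from 30.0 ± 2.17 to 71.5 ± 8.87 CPM (1.24 ± 0.08). Pdk1, which encodes a kinase that keeps pyruvate out of the mitochondria, went from 36.1 ± 5.15 to 83.7 ± 8.88 CPM (1.21 ± 0.09), and the glycolytic gene Pgk1 from 77 ± 3.76 to 146 ± 8.65 CPM (0.93 ± 0.06). Hif1a itself went from 212, 238, 244, 229 and 244 CPM to 374, 340.0, 351, 334 and 345 CPM (0.58 ± 0.06). In all 5 of these genes the groups did not overlap. All 32 genes of the list were tested, with a median log2 change of 0.53 against 0.01 over all genes tested. The 1 that fell was Ndrg1 (-0.35 ± 0.08), also a known HIF-1 target, and Car9 (0.03 ± 0.37) and Slc2a3 (0.10 ± 0.14) were not called. The prolyl hydroxylase gene P4ha2, which acts on collagen, rose from 31.5 ± 3.63 to 58.8 ± 1.15 CPM (0.90 ± 0.08), and Apln, the gene of the vascular peptide apelin, from 2.92 ± 0.913 to 17.4 ± 2.09 CPM (2.56 ± 0.19).

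Several metal-handling and antioxidant genes changed, in both directions. The metallothionein gene Mt2 went from 17.4, 14.1, 13.1, 14.6 and 15.3 CPM to 73.6, 65.6, 66.1, 83.9 and 71.6 CPM (log2 change 2.27 ± 0.09), Mt1 rose by 1.0 ± 0.17, and Sod2, the mitochondrial superoxide dismutase gene, rose from 54.6 ± 2.19 to 121 ± 11.9 CPM (1.14 ± 0.07). Slc39a14, a zinc and iron importer gene, rose by 0.64 ± 0.07. These were the 4 that rose of 15 tested genes of the metallothionein, zinc and superoxide list (median 0.03). None fell, except 1 without 344SQ replicate 2 or 4. Of 28 tested genes under the antioxidant factor NRF2, 7 fell and 1 rose (median -0.08), and 2 rose without CAFs-alone replicate 1. Nqo1 fell from 23.7, 21.7, 21.5, 22.4 and 27.6 CPM to 13.4, 12.3, 11.9, 14 and 10.6 CPM (-0.91 ± 0.11), and Gclc, the rate-limiting gene of glutathione synthesis, also fell (-0.34 ± 0.07), while the ferritin gene Fth1 rose from 2571 ± 209.7 to 3537 ± 282 CPM (0.46 ± 0.07).

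**Figure D3:**
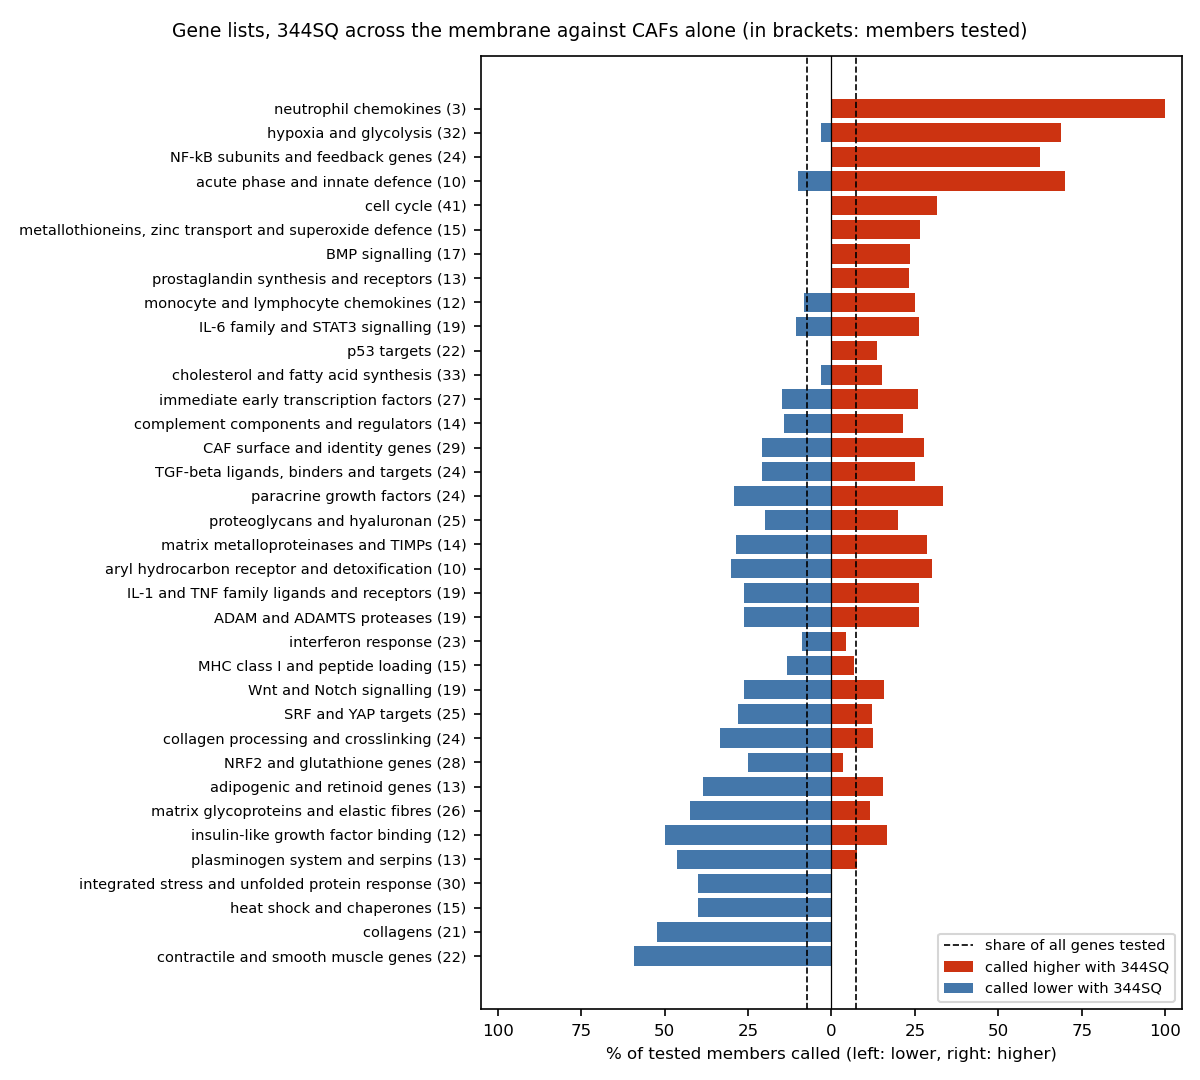
Share of the tested members of each of 36 pathway lists that were called higher (right, red) or lower (left, blue) with 344SQ, with the number tested in brackets and dashed lines at 7.36% and 7.39%, the shares of all genes tested. Hypoxia and glycolysis (22 higher of 32) and NF-kB (15 of 24) hold many higher members and 1 or no lower ones, and contractile genes (13 lower of 22) and collagens (11 lower of 21) hold no higher ones. The lists were chosen with earlier results of these data known.

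The largest falls are given for genes with a mean of at least 5 CPM in CAFs alone and no overlap. Nov, which encodes the matricellular protein CCN3 (ENSMUSG00000037362.8, chr15:54745702-54754039), was at 101, 93.6, 92.7, 99 and 116 CPM in CAFs alone and at 24.1, 17.9, 21.9, 19.9 and 18.8 CPM with 344SQ (log2 change -2.29 ± 0.11, adjusted p = 1.29e-14). Figf, which encodes the lymphatic growth factor VEGF-D (ENSMUSG00000031380.10, chrX:164373378-164402650), went from 587, 598, 499.5, 483 and 614 CPM to 271, 222, 244, 243 and 238 CPM (-1.19 ± 0.07, adjusted p = 1.93e-13). The lack of overlap in these genes follows from that rule. The Notch target Hey2 fell from 7.60 ± 1.25 to 2.03 ± 0.257 CPM (-1.89 ± 0.21), the semaphorin receptor gene Plxna4 from 31.5 ± 5.46 to 9.04 ± 1.54 CPM (-1.80 ± 0.16), the growth factor gene Fgf18 from 25.6 ± 3.44 to 8.30 ± 1.06 CPM (-1.62 ± 0.16) and the Wnt modulator gene Sfrp2 from 8.34 ± 3.48 to 2.59 ± 1.38 CPM (-1.65 ± 0.33). Limch1, which encodes an activator of non-muscle myosin, fell from 27, 27.3, 31, 28.5 and 28.9 CPM to 7.65, 10.6, 10.2, 7.43 and 10.6 CPM (-1.62 ± 0.12). The other genes among the 15 largest falls were Abca8a, Fmo2, Serpinb1a, Ppp2r2b, Rhpn2, Map2, Atp1b1 and Hal, with log2 changes from -1.71 ± 0.24 for Abca8a to -1.17 ± 0.17 for Hal.

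Many genes of the contractile apparatus fell, and none rose. Acta2, which encodes the alpha smooth muscle actin that marks myofibroblasts (ENSMUSG00000035783.8, chr19:34241090-34255590, minus strand), was at 4692, 3571, 3969.6, 4187 and 4011 CPM in CAFs alone and at 2966, 3907, 2385, 2341 and 2721 CPM with 344SQ (log2 change -0.51 ± 0.11, adjusted p = 0.00364). A single sum with 344SQ, replicate 2, lay within the range of CAFs alone. Myh10, a non-muscle myosin heavy chain gene, went from 311, 373, 342, 316 and 349.9 CPM to 225, 237, 221, 195 and 212 CPM (-0.63 ± 0.07), Mylk, the myosin light chain kinase gene, fell (-0.64 ± 0.10), as did the adhesion genes Vcl (-0.52 ± 0.05) and Zyx (-0.50 ± 0.06). The calponin gene Cnn1 fell from 59.6 ± 4.73 to 40.7 ± 4.83 CPM (-0.55 ± 0.09). Of 22 genes tested (25 listed), 13 fell and none rose (median -0.37), and Myh11, Actg2 and Des did not pass the filter. Targets of the tension-sensing factors SRF and YAP did not follow as a group, since 7 of 25 fell and 3 rose, among them Ankrd1 (0.31 ± 0.06) and Nt5e, which encodes CD73 (0.63 ± 0.15). The YAP targets Ctgf and Amotl2 were not called (0.18 ± 0.14 and 0.06 ± 0.06).

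The collagen genes that were called all fell, most by modest amounts. Col3a1 (ENSMUSG00000026043.18, chr1:45311538-45349706) fell furthest among those called, from 1002, 1157, 1006, 994 and 1196 CPM to 645, 485, 612, 539 and 598 CPM (log2 change -0.90 ± 0.07, adjusted p = 8.88e-11). Col1a1, the chain gene of the main fibrillar collagen, went from 1095, 969.5, 1024, 1004 and 1036 CPM to 883, 934, 779, 777 and 919 CPM (-0.26 ± 0.06, adjusted p = 0.00279). Neither gene overlapped between the groups, and the fall of Col1a1 was the smaller. Of 21 collagen genes tested, 11 fell and none rose (median -0.19; 1 rose without 344SQ replicate 2), including Col5a1 (-0.38 ± 0.06), Col4a1 (-0.33 ± 0.06), Col6a1 (-0.38 ± 0.07) and Col6a3 (-0.44 ± 0.07). Of 24 genes that modify and crosslink collagen, 8 fell and 3 rose, with the hydroxylase gene P4ha3 (-0.54 ± 0.08) among the former and the procollagen protease gene Tll1 (0.80 ± 0.09) among the latter.

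Among the other matrix genes, osteopontin stood out. Spp1, which encodes this secreted phosphoprotein that binds integrins and CD44, was at 15.9, 22.1, 19.1, 21 and 23.7 CPM in CAFs alone and at 101, 106, 115, 133 and 117 CPM with 344SQ (log2 change 2.48 ± 0.09, adjusted p = 1.13e-17). It was 1 of 3 glycoprotein and elastic fibre genes that rose, whereas 11 of 26 fell. Fbln5, an elastic fibre assembly gene, fell from 246 ± 19.7 to 143 ± 9.18 CPM (-0.78 ± 0.06), Sparc from 4154 ± 163 to 3079.6 ± 222 CPM (-0.43 ± 0.06), and Efemp1 fell too (-0.48 ± 0.07). Among 25 proteoglycan and hyaluronan genes 5 rose and 5 fell. The small leucine-rich genes Podn (-1.11 ± 0.09) and Fmod (-0.97 ± 0.08) fell, and the hyaluronan receptor gene Cd44 and the syndecan gene Sdc4 rose by 0.55 ± 0.06 and 0.50 ± 0.07.

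**Figure D4:**
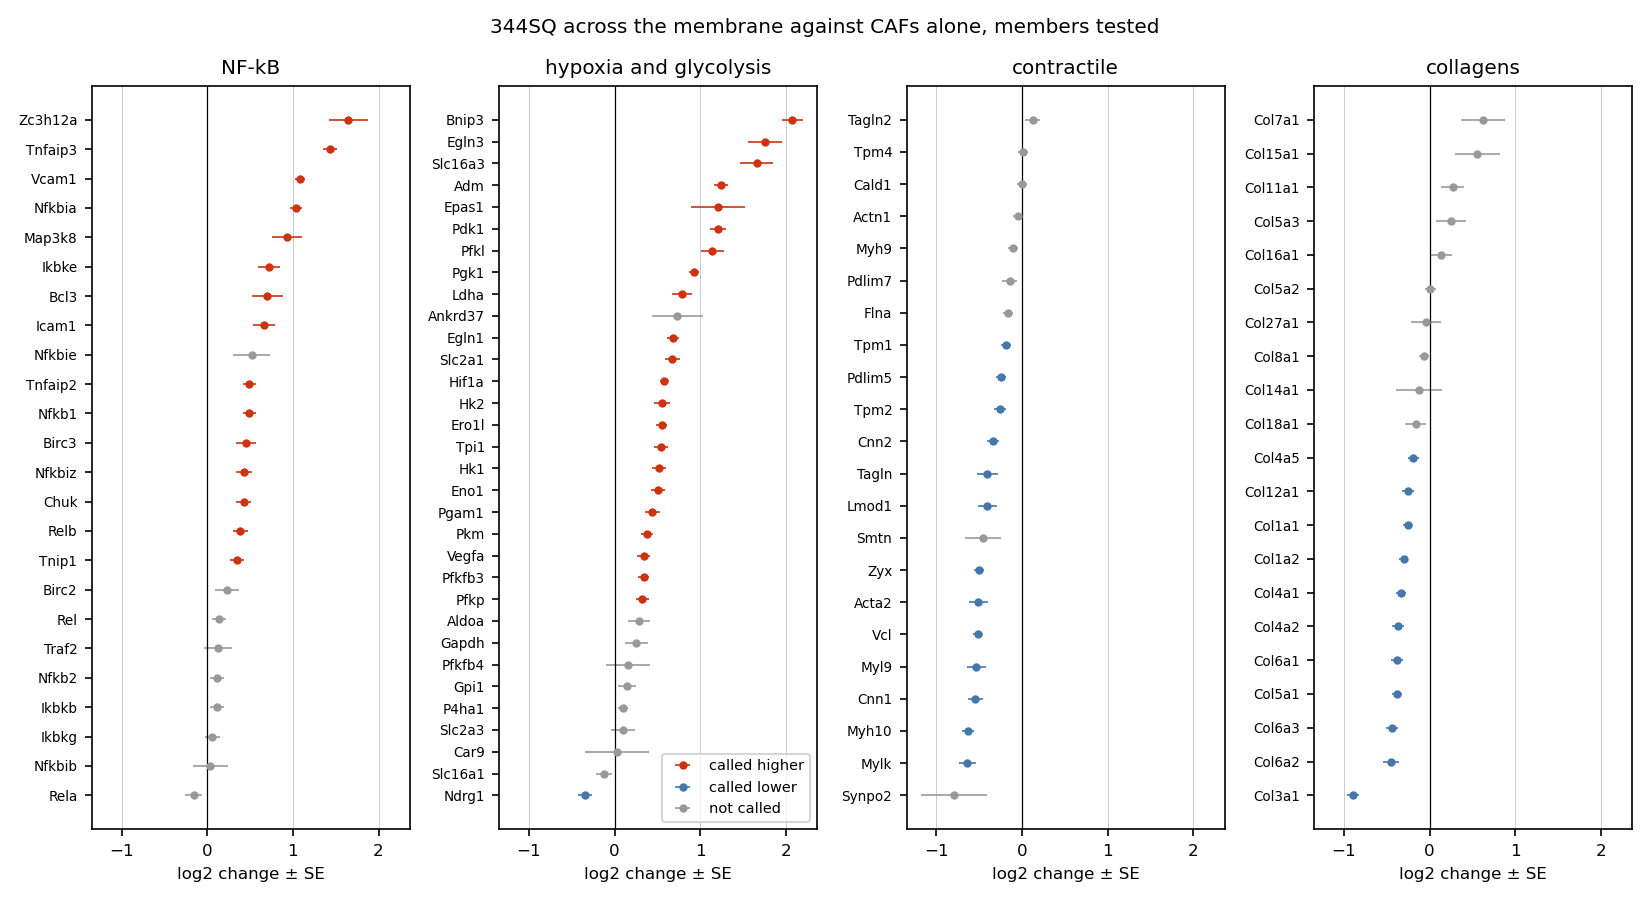
Log2 change ± SE of every tested member of 4 lists, with 344SQ against CAFs alone, in red where called higher, blue where called lower and grey where not called. Most NF-kB and hypoxia members lie to the right of 0, with Zc3h12a and Bnip3 at the top, and the called contractile and collagen members lie to the left, down to Col3a1 at -0.90.

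Growth factor genes moved in both directions. Ereg, an epidermal growth factor receptor ligand, rose from 44.4, 61.1, 54.1, 58.1 and 54.5 CPM to 123, 119.6, 145, 129 and 129 CPM (log2 change 1.24 ± 0.08), and Fgf7, the keratinocyte growth factor gene, from 180.2 ± 7.43 to 319 ± 29.8 CPM (0.82 ± 0.06). Nrg1, a ligand of the ERBB3 receptor, fell from 88.4, 94.3, 76.7, 93 and 97.6 CPM to 49.5, 44.1, 42.7, 44.6 and 46.9 CPM (-0.98 ± 0.07). None of these 3 overlapped between the groups. Of 24 paracrine factors tested 8 rose and 7 fell, and 5 rose without 344SQ replicate 4. Of 12 tested genes around insulin-like growth factor binding 6 fell and 2 rose. Igfbp4 fell from 452 ± 35.1 to 275 ± 21.7 CPM (-0.72 ± 0.06). Igfbp3 (-1.12 ± 0.16) and Pappa, the gene of the protease that cleaves IGFBP4 (-0.85 ± 0.10), fell as well. Igfbp5 was low in CAFs alone, at 2.50 to 4.80 CPM, and lower with 344SQ, at 0.208 to 0.694 CPM (-2.83 ± 0.42). With 344SQ every sum was under the filter cutoff of 1.52 CPM, so Igfbp5 passed through the other groups. Its fall thus adds no support to the count of this list. Igfbp7 rose from 1133 ± 85 to 1701 ± 205 CPM (0.59 ± 0.08).

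In the transforming growth factor beta pathway the ligand genes diverged. Tgfb2 fell from 142 ± 19.7 to 84.4 ± 13.5 CPM (log2 change -0.75 ± 0.10) and Tgfb3 from 53.5 ± 2.13 to 32.9 ± 1.80 CPM (-0.70 ± 0.08), while Tgfb1 rose (0.43 ± 0.10), as did the co-receptor gene Tgfbr3 (0.45 ± 0.06), the latent binding protein gene Ltbp2 (0.84 ± 0.07) and the signal transducer gene Smad3 (0.49 ± 0.08). The common transcriptional targets Smad7 and Pmepa1 were not called (0.09 ± 0.07 and -0.15 ± 0.06). Over the list 6 of 24 rose and 5 fell. Of 17 bone morphogenetic protein genes 4 rose and none fell, among them the antagonist gene Grem1 (745 ± 62.2 to 988 ± 95 CPM, 0.41 ± 0.07) and the target Id3 (0.34 ± 0.08). When the counts were thinned to the smallest sum, 2 of these rose. Of 19 Wnt and Notch genes tested 3 rose and 5 fell. The Wnt feedback gene Nkd1 fell from 23.6 ± 2.0 to 10.9 ± 1.03 CPM (-1.11 ± 0.11), the Notch ligand gene Jag1 fell (-0.61 ± 0.11) and Wnt5a rose (0.48 ± 0.09).

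Some cell cycle genes were slightly higher. The cyclin D1 gene Ccnd1 rose from 392, 373, 355, 351 and 381 CPM to 565, 617, 545, 601 and 562 CPM (log2 change 0.64 ± 0.06, adjusted p = 7.08e-10), without overlap. The mitotic genes Bub1b and Cenpf rose by 0.55 ± 0.09 and 0.43 ± 0.07, and Tyms, which encodes thymidylate synthase, by 0.29 ± 0.06. All 41 listed genes were tested, of which 13 rose and none fell (median 0.14), and 8 rose without CAFs-alone replicate 5 or without the filter on low counts. Without CAFs-alone replicate 2, 1 fell, and without 344SQ replicate 2, 3 fell. Some genes of the integrated stress and unfolded protein responses were lower, 12 of 30 with none higher (median -0.14). They included Chac1, a glutathione-degrading enzyme gene (69.1 ± 9.83 to 41.2 ± 5.64 CPM, -0.74 ± 0.09), Ddit3, which encodes CHOP (-0.67 ± 0.10), and the amino acid transporter gene Slc7a5 (-0.52 ± 0.07). The upstream factor gene Atf4 (-0.12 ± 0.06) and the chaperone gene Hspa5 (-0.13 ± 0.07) were not called. Of 15 heat shock genes 6 fell and none rose, among them Cryab (-0.49 ± 0.08) and Hspb1 (-0.47 ± 0.10). In sterol and fatty acid synthesis 5 of 33 rose (15.15%) and 1 fell (3.03%), against 7.36% and 7.39% of all genes. The number that rose was 3 without CAFs-alone replicate 1 or 4 or 344SQ replicate 1, 3 or 4. The number that fell was 2 without 344SQ replicate 2 and 0 without 344SQ replicate 3.

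Genes used to define fibroblast identity gave no single direction. Pdgfra, which encodes the platelet-derived growth factor receptor alpha, rose from 134, 131, 127, 123 and 138 CPM to 236, 242, 244, 223 and 239.6 CPM (log2 change 0.86 ± 0.06, adjusted p = 1.32e-12), without overlap, and Prrx1, a mesenchymal transcription factor gene, by 0.33 ± 0.06. Zeb2 rose from 153 ± 14.4 to 203 ± 12.4 CPM (0.40 ± 0.07). For its relative Zeb1 the change was 0.18 ± 0.06 (adjusted p = 0.0378), and the call was lost without CAFs-alone replicate 1, 3 or 4 or 344SQ replicate 1, 3 or 5, with adjusted p between 0.0586 and 0.111. Fap, Thy1 and Pdpn, widely used CAF surface markers, were not called (0.65 ± 0.28, -0.30 ± 0.19 and 0.12 ± 0.07). Of 29 genes tested 8 rose and 6 fell, and the number that fell was 3 without CAFs-alone replicate 5 and 2 without 344SQ replicate 4.

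Interferon genes stood apart in 1 sum of CAFs alone. Their summed level was 681 CPM in CAFs-alone replicate 4, 326 to 364 CPM in the other 4 sums of CAFs alone and 324 to 364 CPM with 344SQ (p = 0.238, exact permutation test, 2-sided). Oasl2, an interferon-induced gene, was at 3.73, 4.66, 4.25, 50.8 and 7.36 CPM in CAFs alone and 8.41, 4.34, 6.46, 6.34 and 5.63 CPM with 344SQ. The list's median log2 change was -0.34 with all sums and -0.06 without CAFs-alone replicate 4. Of 23 genes tested 1 rose (4.35%) and 2 fell (8.7%) with all sums, near the 7.36% and 7.39% of all genes. The number that fell was 4 without CAFs-alone replicate 3 and 1 without 344SQ replicate 1, and the number that rose was 2 without 344SQ replicate 2 and 0 without CAFs-alone replicate 1 or 3 or 344SQ replicate 1, 3 or 5. Ifit3 was lower in both analyses (-0.86 ± 0.21, and -0.60 ± 0.16 without that sum, adjusted p = 0.0123), whereas Ifi35 lost its call without it (adjusted p = 0.105) and Ifit1 gained one (-1.01 ± 0.33, adjusted p = 0.0434, against 0.0679 with all sums), so that 2 genes fell in each analysis. What set that sum apart was not tested. Of 15 tested genes of MHC class I and peptide loading 1 rose (6.67%) and 2 fell (13.3%) with all sums, against 7.36% and 7.39% of all genes. In this list 2 rose and none fell without CAFs-alone replicate 4. With any 1 sum left out, 0 to 2 rose and 0 to 2 fell. None fell without 344SQ replicate 1 either, 1 fell without CAFs-alone replicate 1 or 3 or 344SQ replicate 3 or 4, and none rose without CAFs-alone replicate 1 or 344SQ replicate 5.

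Levels were also measured in tCAFs across the membrane from 393P cells. The groups with 344SQ and with 393P were compared directly, and this comparison shares its 344SQ sums with the one above. Of 14040 genes 361 were higher with 344SQ than with 393P (2.57%) and 204 lower (1.45%). The number lower was 133 without 344SQ replicate 1 or 393P replicate 4, 390 without 344SQ replicate 4 and 117 without 393P replicate 5. Saa3 was at 34.5, 36.3, 27.3, 27.4 and 38.4 CPM with 393P, all below the CAFs-alone values, and 344SQ exceeded 393P by 6.05 ± 0.16 on the log2 scale. Lcn2 was at 0.419, 0.160, 0.158, 0.152 and 0.290 CPM with 393P, and Cxcl1, at 11.6, 13.6, 11.4, 11.3 and 14.2 CPM, lay within or near the range of CAFs alone. The differences were 5.60 ± 0.25 for Cxcl5, 3.62 ± 0.13 for Cxcl1, 2.63 ± 0.15 for Steap4, 2.79 ± 0.23 for the chitinase-like gene Chil1, 2.82 ± 0.18 for the oxysterol synthesis gene Ch25h and 1.29 ± 0.11 for Il6. Against CAFs alone, 393P gave a lower Saa3 (-0.74 ± 0.15, adjusted p = 0.00299) and a higher Steap4 (0.61 ± 0.20, adjusted p = 0.0349), and no call for Lcn2, Cxcl1, Cxcl2, Cxcl5, Chil1, Ch25h or Il6. Protease and matrix changes were in part shared. With 393P against CAFs alone, Mmp13 (1.25 ± 0.14) and Mmp3 (1.67 ± 0.13) also rose. Nov (-1.23 ± 0.10), Figf (-0.90 ± 0.07), Timp3 (-0.58 ± 0.06) and Col3a1 (-0.61 ± 0.07) also fell.

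Other genes that had changed with 344SQ were not called between the lines. For Spp1, at 106, 89.4, 89.8, 91.7 and 105 CPM with 393P, the lines differed by 0.24 ± 0.08 (adjusted p = 0.0979), for Pdgfra by 0.11 ± 0.05, for Ccnd1 by -0.14 ± 0.06 and for Acta2 by 0.12 ± 0.11 (adjusted p = 0.666). None of these 4 passed the threshold, which does not show equal levels. By list, 18 of 32 hypoxia and glycolysis genes were higher with 344SQ than with 393P and none lower, as were 12 of 24 NF-kB genes with none lower, against 2.57% of all genes. Bnip3 was at 17.7 ± 2.56 CPM with 393P, between CAFs alone and 344SQ, and differed from 344SQ by 0.96 ± 0.11. Of the contractile genes 1 of 22 was lower with 344SQ than with 393P, namely Mylk (-0.38 ± 0.10), and of the collagens 1 was higher (Col12a1, 0.25 ± 0.07) and 1 lower (Col3a1, -0.29 ± 0.07), so most of these did not differ between the lines beyond the threshold. Lower with 344SQ than with 393P were also Abca8a (-1.60 ± 0.25), the calcification inhibitor gene Mgp (-1.29 ± 0.14, at 33.5 ± 3.62 CPM with 393P), Nov (-1.06 ± 0.12), Il1rn (-0.87 ± 0.14) and Trabd2b, which encodes a Wnt-cleaving protease (-0.81 ± 0.11).

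The effect of 344SQ was also set against that in aggregates, where fibroblasts and cancer cells touch. A joint fit of 24 libraries asked whether the log2 change across the membrane minus that in aggregates differed from 0, over 7992 genes. It was above 0 in 353 genes (4.42%) and below 0 in 401 (5.02%). The fit shares 1 spread between the formats, although the aggregate libraries, at 757717 to 1258751 counts, were shallower. With a variance for each table (limma-voom) the numbers were 200 (2.5%) and 225 (2.82%), and only genes that passed in both fits are named here, except where stated. Library composition differed as well. With 344SQ, ribosomal RNA-like genes took 21.9% to 24.8% of the counts in aggregates and 0.334% to 0.496% across the membrane. The 10 most abundant genes took 46.1% to 53.3% and 16.1% to 17.5%. The differences in depth and composition cannot be told apart from that in format. The changes in aggregates are given from the joint fit and were not tested on their own, and those across the membrane are from the fit above.

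Inflammatory, metal-binding and hypoxia genes were among those with the higher change across the membrane. For Mt2 the change in aggregates was -1.47 ± 0.26, and the difference of the formats was 3.76 ± 0.28 (adjusted p = 9.87e-13, and 2.15e-09 with a variance per table). For Mmp3 the difference was 3.46 ± 0.66, for Cp 3.14 ± 0.42, for Ccl7 2.93 ± 0.40 and for Cxcl1 2.88 ± 0.60. For Bnip3 the change in aggregates was -0.50 ± 0.30 and the difference 2.59 ± 0.33. For C3, the central complement gene, the change in aggregates was -2.40 ± 0.19, against 0.31 ± 0.09 across the membrane, a difference of 2.74 ± 0.22. Across the membrane C3 went from 1206, 1037, 869, 860.1 and 1105 CPM to 1452, 1316, 1095, 1141 and 1294 CPM (adjusted p = 0.0199), a call that was lost without CAFs-alone replicate 3 (adjusted p = 0.0544), CAFs-alone replicate 4 (0.0566) or 344SQ replicate 1 (0.0643). For Cxcl12 the change was -2.46 ± 0.13 in aggregates and -0.23 ± 0.05 across the membrane, a difference of 2.26 ± 0.15. Pkia, which encodes a protein kinase A inhibitor, was at 0, 1.21 and 0 CPM in the aggregates with 344SQ, so that its fitted change there, -5.27 ± 0.91, rests on few counts and is no bound, against -0.83 ± 0.16 across the membrane. Of 27 hypoxia and glycolysis genes tested, 10 lay above 0 in both fits and 1 below, Vegfa.

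Wnt-related and matrix genes were among those with the lower change across the membrane. Sfrp2 had a change of 2.48 ± 0.35 in aggregates and fell across the membrane, a difference of -4.10 ± 0.48 (adjusted p = 5.12e-07, and 2.95e-05 with a variance per table). Changes of opposite sign were measured for the Wnt inhibitor gene Apcdd1 (2.69 ± 0.30 in aggregates, difference -3.25 ± 0.40), for Mgp (2.35 ± 0.36, -3.03 ± 0.45), for Il33 (2.23 ± 0.43, -3.0 ± 0.54), for Abi3bp, a matrix protein gene (1.91 ± 0.28, -2.83 ± 0.42), for the mechanosensitive channel gene Piezo2 (2.45 ± 0.33, -2.75 ± 0.36), for Wisp2, which encodes CCN5 (2.0 ± 0.38, -2.65 ± 0.39), and for the aryl hydrocarbon receptor gene Ahr (2.0 ± 0.12, -2.50 ± 0.14). Nov differed by -2.48 ± 0.59, but not with a variance per table (adjusted p = 0.0629). Of 21 Wnt and Notch genes tested 5 lay below 0 in both fits and none above. For Spp1 the change was 2.27 ± 0.16 in aggregates and 2.48 ± 0.09 across the membrane, and the difference of 0.23 ± 0.20 was not called. Neither were those of Acta2 (0.13 ± 0.69), Col1a1 (-0.22 ± 0.16), Il6 (1.12 ± 0.51) and Zeb1 (-0.06 ± 0.16).

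**Figure D5:**
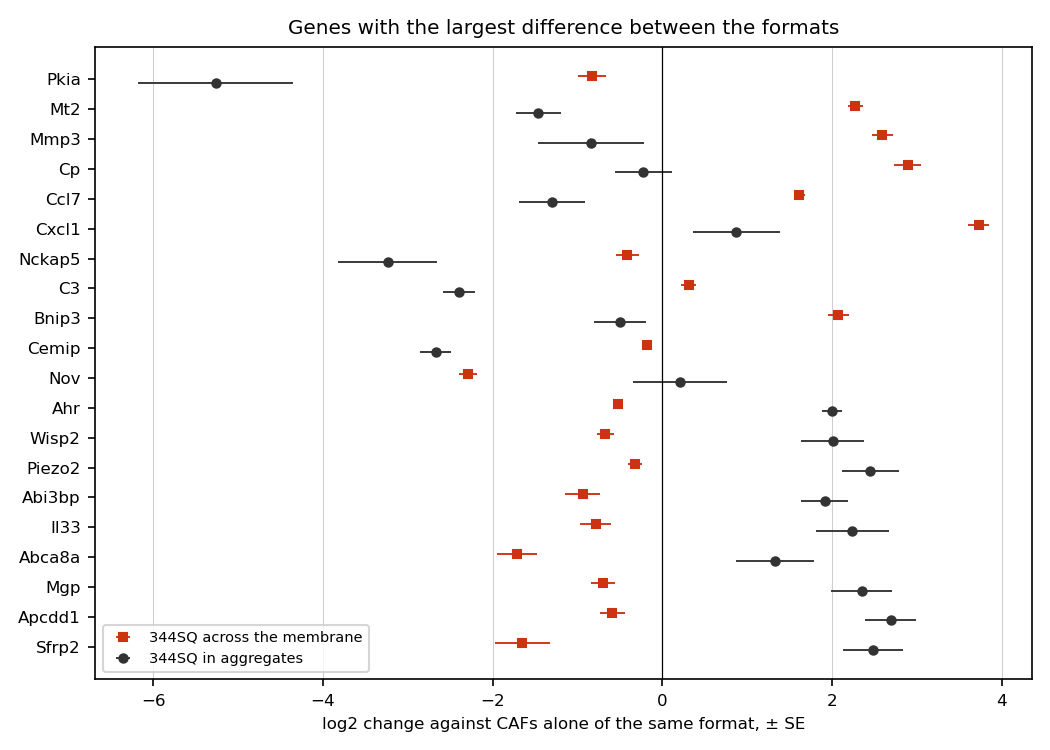
Log2 change ± SE with 344SQ against CAFs alone across the membrane (red squares, 5 sums per group) and in aggregates (dark circles, 3 libraries per group) for the 10 genes with the largest difference in each direction. Sfrp2, Apcdd1, Mgp, Il33 and Piezo2 lie to the right of 0 in aggregates and to the left across the membrane, and Nov did not pass with a variance per table.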

How the data were processed

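The authors deposited tables of whole-number counts per gene. Reads had been aligned with STAR to mm10 and counted with HTSeq, per the submitters' processing notes, with versions, strand setting and annotation release not given in the sources used here. Per the labels' protocols, CAFs were sorted, lysed and sequenced after sonication and adapter ligation. The 3 technical libraries of each replicate were summed. Genes were kept by edgeR's filterByExpr over the 15 membrane sums, scaled by TMM, and fitted in 3 groups with glmQLFit (robust) and glmQLFTest (edgeR 4.0.16, R 4.3.3), adjusted by Benjamini-Hochberg. Standard errors are the log2 change divided by the square root of F. DESeq2 1.42.0 and limma 3.58.1 served as alternatives, and the code was tested on simulated data. Positions are from GENCODE M21 on GRCm38, matched by gene identifier, and promoters from RefSeq.

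Named genes are the 15 largest rises and falls among called genes without overlap whose higher group averaged 5 CPM or more, up to 5 called members of each list by smallest p (the 2 of highest level where none was called), 8 genes always named, and the 10 largest differences in each direction against 393P and against aggregates. A few other list members are named with their values after those were seen. Members and lists were chosen with earlier results of these data known. Samples were not paired by replicate number in the main fit.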

Additional observations from a re-analysis of the deposited data

Results flagged for a closer look

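In 17 of 346 groups of 5 values tested, 1 sample lay far from the other 4 (gap over range above 0.71, Dixon's 95% value), and chance gives about 1 in 20 groups. In CAFs alone the high samples were replicate 2 for Fmod (49.6 CPM), replicate 3 for Epcam (0.118 CPM), replicate 4 for Oasl2 (50.8 CPM), Ifit1 (21.5 CPM) and for the summed interferon genes (681 CPM), replicate 5 for Mgp (29.8 CPM), Serpinb1a (26.5 CPM) and Steap4 (4.87 CPM), and replicate 1 for Zyx (1389 CPM). The low ones were replicate 1 for Slc39a14 (45 CPM), replicate 3 for Mmp13 (3.19 CPM) and replicate 4 for Irak3 (15.7 CPM). With 344SQ replicate 2 was high for Slc7a5 (154 CPM) and low for Car9 (0.694 CPM), replicate 3 was high for Epcam (0.208 CPM), and replicate 5 was high for Nt5e (25.1 CPM) and low for Vcam1 (679 CPM).

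Some changes with 344SQ differed from those with 393P by a direct test (edgeR, 344SQ minus 393P on the log2 scale). The difference was 6.55 for Lcn2, 6.23 for Cxcl2, 6.05 for Saa3, 5.60 for Cxcl5, 3.62 for Cxcl1, 2.82 for Ch25h, 2.79 for Chil1 and 2.63 for Steap4, where the fitted values of Lcn2 and Cxcl2 rest on few counts with 393P and are no bound. It was -1.60 for Abca8a, -1.29 for Mgp, -1.06 for Nov, -1.02 for Ppp2r2b, -0.95 for Hey2, -0.87 for Il1rn and -0.81 for Trabd2b. Others differed between the membrane and aggregates in both joint fits (membrane minus aggregates, log2). The difference was 4.46 for Pkia, which rests on few counts in the aggregates with 344SQ, 3.76 for Mt2, 3.46 for Mmp3, 3.14 for Cp, 2.93 for Ccl7, 2.88 for Cxcl1, 2.74 for C3 and 2.59 for Bnip3. It was -4.10 for Sfrp2, -3.25 for Apcdd1, -3.03 for Mgp, -3.01 for Abca8a, -3.0 for Il33, -2.83 for Abi3bp, -2.75 for Piezo2, -2.65 for Wisp2 and -2.50 for Ahr.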

How the results depend on the processing

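With other scaling, tools, filters or fits, the 1033 genes called higher and 1037 lower with 344SQ against CAFs alone became 1043 and 1027 with RLE scaling, 1143 and 947 with upper-quartile scaling, 980 and 1037 with DESeq2, 1012 and 1032 with limma-voom, 919 and 874 with counts thinned to the smallest sum, 903 and 874 when 393P was left out of the fit, and 957 and 1338 with no filter on low counts. Leaving out 1 replicate gave 805 to 1376 higher and 783 to 1411 lower. A test against a log2 change of 1 called 42 and 7. A single technical library per replicate gave 283 and 223 (library 1), 296 and 218 (library 2) or 420 and 316 (library 3), with fewer counts in each. With library 1 alone C3 reversed, to -0.059 (adjusted p = 0.923), and the cause was not tested. With the replicate block 881 were higher and 912 lower. Same-numbered samples correlated at -0.26, -0.35, 0.12, -0.13 and 0.01, and only replicate 3 matched its own number best. This cannot show that same-numbered samples were unpaired, since technical libraries of a replicate did not resemble each other more closely either. Against 393P the number lower was 390 with no filter and 117 to 390 with 1 replicate left out (133 without 344SQ replicate 1 or 393P replicate 4, 390 without 344SQ replicate 4, 117 without 393P replicate 5). There, the fit on only the 2 groups compared used 344SQ and 393P. Between formats, a variance per table (limma-voom) gave 200 above 0 and 225 below. Per left-out replicate 2 to 9 of the 205 named genes tested, Cdh1 without a call among them, lost the call against CAFs alone and none reversed. With a single technical library 75 (library 1), 70 (library 2) or 57 (library 3) lost it. In the test against a log2 change of 1, 174 lost it. The 344SQ sums, the shallowest of the membrane sums, limit what could be called among low genes.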

Other observations

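Retinoid and fat-cell genes, which mark lipid-storing fibroblasts, moved in both directions. Of 13 tested genes 2 rose and 5 fell. The retinoic acid receptor gene Rarb rose from 2.89 ± 0.395 to 5.51 ± 1.33 CPM (log2 change 0.94 ± 0.19, edgeR adjusted p = 0.00103). Aldh1a1, which makes retinoic acid, fell from 423 ± 45.5 to 304 ± 25.2 CPM (-0.47 ± 0.07), and Pparg, the master regulator gene of fat cells, from 27.3 ± 2.65 to 19.7 ± 1.74 CPM (-0.48 ± 0.10). The groups did not overlap in any of these 3 genes. Of 10 genes of the aryl hydrocarbon receptor and detoxification list 3 rose and 3 fell. Cyp7b1, which hydroxylates oxysterols, rose from 2.52 ± 0.834 to 5.39 ± 0.827 CPM (1.08 ± 0.24), and the receptor's target Tiparp fell (-0.37 ± 0.10).

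Among immediate early transcription factors and phosphatases 7 of 27 rose and 4 fell. Fosl1, a subunit gene of AP-1, rose from 23.8 ± 4.55 to 40.6 ± 7.96 CPM (0.78 ± 0.13), Dusp6, a feedback phosphatase gene of ERK signalling, from 35.8 ± 1.84 to 54.4 ± 2.92 CPM (0.60 ± 0.07), and Ier3 by 0.76 ± 0.10, while Klf4 fell from 124 ± 5.89 to 96 ± 4.22 CPM (-0.37 ± 0.06). Of 14 complement genes 3 rose, including the protease gene C1s1 (197 ± 17.8 to 283 ± 49.3 CPM, 0.52 ± 0.09), and 2 fell, C1qtnf6 (-0.44 ± 0.09) and C4b (13.8 ± 3.55 to 6.90 ± 2.07 CPM, -1.01 ± 0.18). Of 22 p53 targets 3 rose (13.6%, against 7.36% of all genes) and none fell, with a median log2 change of 0.006. The number that fell was 1 without CAFs-alone replicate 2, 2 without CAFs-alone replicate 3 and 3 without 344SQ replicate 2. The death receptor gene Fas was at 23.2 ± 1.07 CPM in CAFs alone and 36 ± 4.66 CPM with 344SQ (0.63 ± 0.09).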
